A study of Mus musculus with 50 samples.

Results

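The genes of the BMP, TGF-beta and Nodal signalling pathway were followed in mouse embryonic stem cells (ESCs) whose PRC2 enzymes EZH1 and EZH2 had been deleted or mutated. A gene was a member when its symbol was that of a BMP, GDF, TGF-beta, inhibin beta A or B, Nodal or Lefty ligand, of an activin, BMP or TGF-beta receptor, of a SMAD or of an inhibitor of DNA binding (*Id1* to *Id4*). The table of normalized read counts held 45 such genes among 18055, and 35 of them had a mean of at least 5 normalized counts over the 8 RNA-seq libraries and were tested.

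Ligands of this family bind a pair of type II and a pair of type I receptor kinases at the cell surface. BMP ligands lead to phosphorylation of SMAD1, SMAD5 and SMAD9, whereas Nodal, activins and TGF-beta act through SMAD2 and SMAD3. Both branches share SMAD4, and SMAD6 and SMAD7 inhibit the receptors. In mouse ESCs, BMP4 with LIF supports self-renewal in part through the *Id* genes, and Nodal drives its own antagonists *Lefty1* and *Lefty2*. Many genes of the pathway guide cell fate in the gastrulating embryo. PRC2 methylates lysine 27 of histone H3 (H3K27me3), SUZ12 is its core subunit, and acetylation of the same lysine (H3K27ac) marks active promoters and enhancers.

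All lines were E14TG2a ESCs grown in serum with 2i and LIF. WT ESCs carry both enzymes, *Ezh2* KO ESCs keep *Ezh1*, and *Ezh1/2* dKO (dKO) ESCs lack both genes. *Ezh2* Y726D (Y726D) and *Ezh2* R685C (R685C) ESCs carry point mutations of *Ezh2* in an *Ezh1* KO background, given as homozygous for Y726D. The study describes Y726D as catalytically dead and R685C as restoring di-methylation more than tri-methylation. Some older labels of the Y726D ChIP-seq samples name the point mutation without the *Ezh1* knockout. Each mutant line comes from CRISPR-edited clones, so effects of a clone and of its genotype cannot be told apart. HA ChIP-seq was available for *Ezh1/2* dKO ESCs without and with HA-tagged EZH1 put back. RNA-seq covered 4 lines, all but R685C, with 2 libraries each, and ChIP-seq peak lists covered 5 lines with 1 library per line and target. The study states in general terms that samples were run in replicate at the biological level, without saying whether the RNA libraries of a line were separate cultures, so p-values measure the spread between these libraries only.

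The RNA libraries held 3604123 to 5181553 reads on genes. *Ezh2* was at 546 to 598 normalized counts in WT, at 0.824 to 1.78 in *Ezh2* KO and dKO and at 422 to 613 in Y726D ESCs. *Ezh1* was at 14 to 24.1 in dKO and Y726D ESCs and at 227 to 378 in the other libraries. The 12 pluripotency markers summed to between 15243 and 18212 in every library, with 0 of 12 called in the comparisons with WT. The 10 primitive endoderm markers summed to 670 to 713 in WT, 495 to 734 in *Ezh2* KO, 1722 to 1814 in dKO and 1414 to 2167 in Y726D ESCs, and the 7 trophectoderm markers to 336 to 455, 501 to 603, 802 to 1016 and 675 to 1232. Of the 8 and 5 tested markers of these lists, 4 and 3 were called higher in dKO (3.63% of all tested genes). In Y726D ESCs 2 and 3 were (1.66% of all tested genes). No marker of any list was at 0 reads in all libraries. Primitive streak markers summed to 71.2 to 80.0 in WT and to 116 to 289 in Y726D ESCs, with 0 of 4 tested genes called. The part of these lists in the results below was not tested. In bulk RNA, fewer cells of a type and less RNA per cell cannot be told apart.

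In WT ESCs the Nodal branch was the most abundant. Per kilobase of annotated exons, *Gdf3*, a Nodal-related ligand, was at 527 normalized counts, *Lefty2* at 495, *Lefty1* at 439 and *Nodal* at 424. The next were *Id3* at 286, *Id1* at 158 and *Bmp4* at 154. Members whose promoter held a WT SUZ12 peak had a median of 3.36 per kilobase (range 0 to 286, 24 genes), and the other 21 members had a median of 39.1 (range 0.623 to 527). *Id1*, *Id3* and *Bmp4* thus combined a SUZ12 peak with a high mean RNA level. For *Id1* and *Id3* that mean joins WT libraries 6.10-fold and 3.38-fold apart, with replicate 1 the higher.

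SUZ12 lay at the promoters of 24 of the 45 members in WT ESCs (53.3%, Wilson 95% CI 39.1 to 67.1), compared with 17.4% of the 16570 genes of the table that were matched to the annotation. A promoter counted as bound when a deposited peak with a p of at most 1e-10 shared at least 1 bp with the 5 kb on either side of an annotated start site. The bound members were 8 BMP ligands (*Bmp2*, *Bmp3*, *Bmp4*, *Bmp6*, *Bmp7*, *Bmp8a*, *Bmp8b* and *Gdf10*), the procollagen protease *Bmp1*, *Gdf11*, the activin subunit gene *Inhbb*, the ligands *Tgfb1* and *Tgfb2*, the receptors *Bmpr1b*, *Tgfbr1*, *Tgfbr2* and *Tgfbr3*, the SMADs *Smad3*, *Smad6* and *Smad9*, and all 4 *Id* genes. *Nodal*, *Gdf3*, *Lefty1*, *Lefty2* and every activin receptor had no SUZ12 peak there in WT. Confidence intervals here cover counting error only, and the depth behind each peak list is unknown.

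H3K27me3 peaks lay at 27 members in WT (22.2% of all genes). Of these, 23 also held SUZ12, whereas *Acvr1b*, *Acvrl1*, *Lefty1* and *Tgfb3* held H3K27me3 without a SUZ12 peak. *Bmp4* was the reverse, with SUZ12 at chr14:47008283-47009898 (mm9) and no H3K27me3 peak in any of the 5 lines. It was the only bound member without H3K27me3 in WT, and its Y726D SUZ12 peak (chr14:47007177-47007456, 280 bp) did not overlap the WT one.

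**Figure D1:**
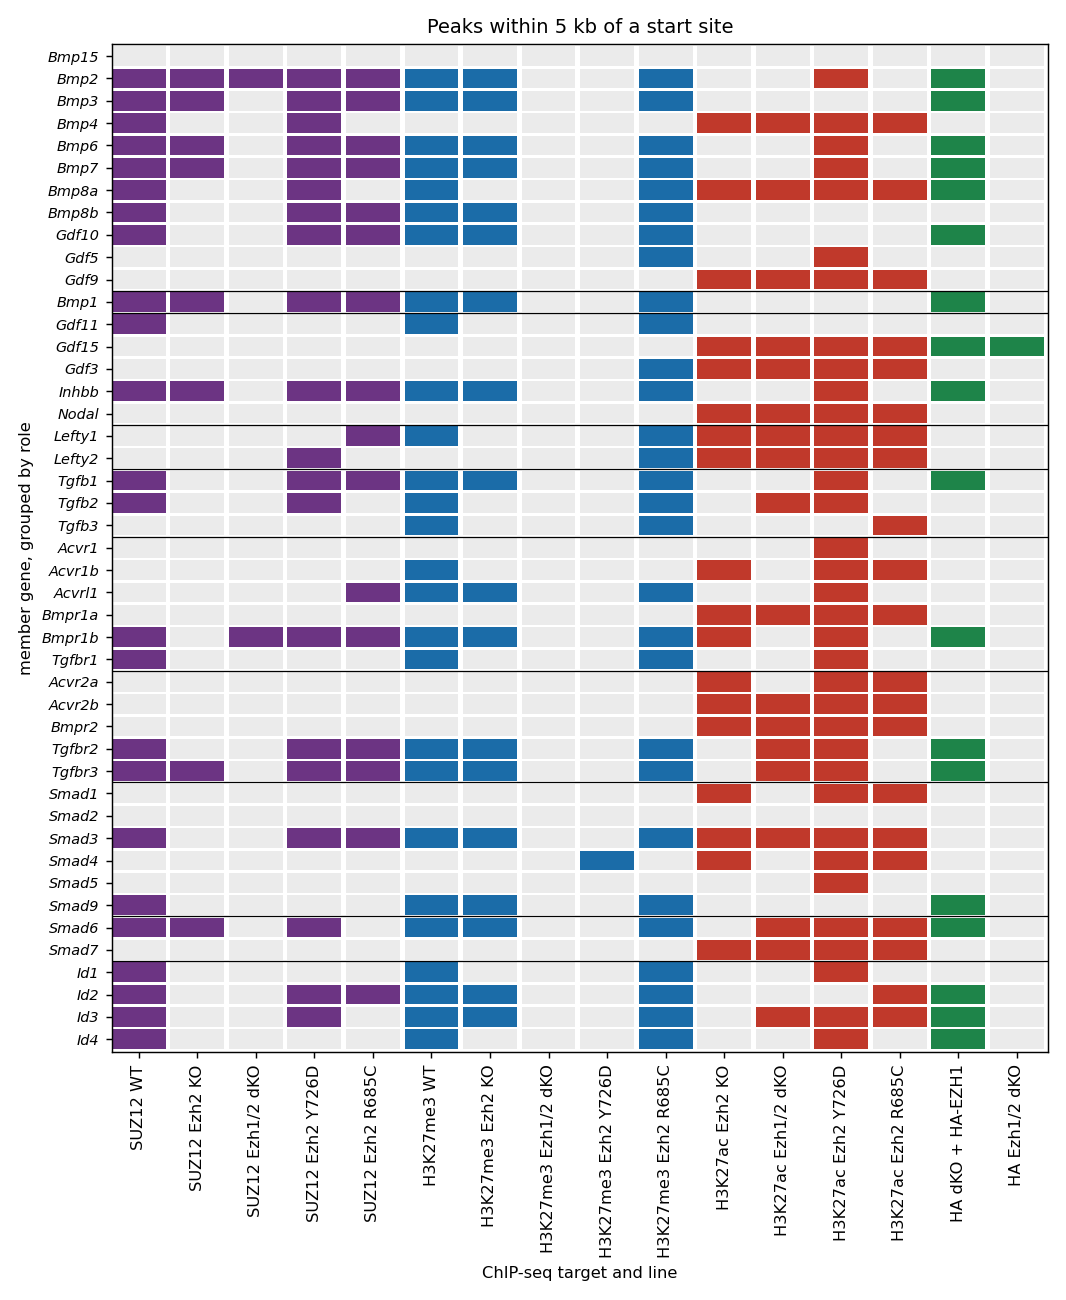
Peaks at the promoters of the 45 members, grouped by role (rows), in the 16 ChIP-seq lists (columns). A filled cell means at least 1 peak within 5 kb of a start site (purple SUZ12, blue H3K27me3, red H3K27ac, green HA), and SUZ12 marks 24 members in WT, 8 in *Ezh2* KO, 2 in dKO, 20 in Y726D and 16 in R685C ESCs.

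The 250 bases upstream of the start sites of 5 members are printed to show promoters of different chromatin state. Each runs 5′ to 3′ on the strand of the gene, with CpG dinucleotides in capitals. The promoters are RefSeq sequences of GRCm38.p6, each matched exactly once in mm9, whose coordinates are given. *Bmp4* (chr14:47010345-47010594, minus strand) is shown as a bound gene whose upstream bases lay under the H3K27ac peaks of all 4 mutant lines. *Bmp8b* (chr4:122782154-122782403, plus strand) is shown as a member that rose without H3K27ac, its upstream bases being under SUZ12 in WT, Y726D and R685C. Those of *Inhbb* (chr1:121318826-121319075, minus strand) lay under SUZ12 in WT, *Ezh2* KO and R685C, under H3K27ac in Y726D and under HA-EZH1. *Smad6* (chr9:63869867-63870116, minus strand) had the strongest WT SUZ12 peak of the members, with H3K27ac on these bases in Y726D and R685C. *Nodal* (chr10:60880470-60880719, plus strand) is shown as an unbound, expressed member, with H3K27ac on these bases in *Ezh2* KO, Y726D and R685C. In dKO its promoter also had H3K27ac within 5 kb, but not on these bases.
Bmp4: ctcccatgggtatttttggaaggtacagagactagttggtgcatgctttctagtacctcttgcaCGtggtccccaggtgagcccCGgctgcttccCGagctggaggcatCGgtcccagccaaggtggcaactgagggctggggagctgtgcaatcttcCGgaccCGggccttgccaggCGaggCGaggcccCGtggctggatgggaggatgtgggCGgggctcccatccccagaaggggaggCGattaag
Bmp8b: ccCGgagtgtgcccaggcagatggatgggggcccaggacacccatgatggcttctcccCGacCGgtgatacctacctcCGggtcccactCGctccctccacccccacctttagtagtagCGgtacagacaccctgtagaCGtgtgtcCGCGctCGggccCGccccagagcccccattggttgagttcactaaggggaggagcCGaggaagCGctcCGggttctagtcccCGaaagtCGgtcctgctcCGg
Inhbb: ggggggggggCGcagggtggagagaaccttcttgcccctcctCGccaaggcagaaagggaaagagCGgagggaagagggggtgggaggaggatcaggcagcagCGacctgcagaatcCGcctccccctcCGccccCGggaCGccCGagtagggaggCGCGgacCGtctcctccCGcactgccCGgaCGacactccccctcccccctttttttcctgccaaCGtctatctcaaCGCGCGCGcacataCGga
Smad6: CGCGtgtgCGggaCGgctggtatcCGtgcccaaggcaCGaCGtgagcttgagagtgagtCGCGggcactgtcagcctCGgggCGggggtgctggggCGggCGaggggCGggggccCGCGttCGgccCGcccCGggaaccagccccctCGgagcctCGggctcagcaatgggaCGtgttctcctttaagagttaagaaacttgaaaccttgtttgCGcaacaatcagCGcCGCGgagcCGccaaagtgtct
Nodal: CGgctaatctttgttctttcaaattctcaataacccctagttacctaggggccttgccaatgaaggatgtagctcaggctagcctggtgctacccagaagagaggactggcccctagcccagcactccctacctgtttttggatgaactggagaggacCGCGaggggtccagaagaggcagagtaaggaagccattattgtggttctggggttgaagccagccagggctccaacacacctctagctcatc

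The ratio of observed to expected CpG was 0.984 in the *Smad6* sequence, 0.727 in *Inhbb*, 0.645 in *Bmp8b*, 0.451 in *Bmp4* and 0.170 in *Nodal*. Promoter sequences from 250 bases before to 50 after the start were found for 29 members (35 promoters). Their median CpG ratio was 0.741, compared with 0.683 over 16351 promoters of 13062 genes. It was 0.711 for members with a WT SUZ12 peak (21 promoters of 18 genes) and 0.972 for those without (14 promoters of 11 genes). Over all genes these 2 classes had 0.691 and 0.689. Not every promoter of a bound member lay under the SUZ12 peak itself. The nearest *Bmpr1b* sequence, for example, starts 187161 bp from the most 5′ start site, where its WT peak lay. The CpG content of SUZ12-covered bases was therefore not compared. The SMAD-binding letters GTCT stood on either strand in 30 of the 35 member promoters (85.7%) and in 86.2% of all promoters. The palindrome GTCTAGAC, which contains GTCT, was found only in *Smad6* among the member promoters (2.86%, 0.239% of all). GGCGCC stood in 10 (28.6%, 18.7% of all) and GCCGNCGC in 12 (34.3%, 16.0% of all). Such matches describe letters only.

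SUZ12 at these promoters differed between the lines. In *Ezh2* KO ESCs, which keep EZH1, 8 of the 24 bound members still had a SUZ12 peak (28.3% of all bound genes, 4.93% of all genes): *Bmp1*, *Bmp2*, *Bmp3*, *Bmp6*, *Bmp7*, *Inhbb*, *Smad6* and *Tgfbr3*. In dKO ESCs 2 remained (6.88% of bound genes, 1.19% of all genes), *Bmp2* and *Bmpr1b*. In Y726D ESCs 19 of the 24 had a peak (79.2%, 60.7% of bound genes, 12.4% of all genes), and *Gdf11*, *Id1*, *Id4*, *Smad9* and *Tgfbr1* had none. In R685C ESCs 14 of the 24 had one (55.3% of bound genes, 9.92% of all genes). *Lefty2* was bound in Y726D and *Acvrl1* and *Lefty1* in R685C ESCs without a WT peak.

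At promoters with SUZ12 peaks in WT and a mutant line, the bases these covered near the start sites were mostly fewer in the mutant. The peaks of the lines need not overlap, and at *Bmp4* those of WT and Y726D did not. In Y726D ESCs all 19 shared promoters had fewer bases under SUZ12 peaks than in WT, with a median of 814 bp against 1675 bp. In *Ezh2* KO ESCs the same was true of 8 of 8, with 1381.5 bp against 2664.5 bp. In R685C ESCs it held for 10 of 14, with medians of 1457.5 and 1723.5 bp. At *Tgfbr3* the best −log10 p of the SUZ12 peak was 83.0 in WT (chr5:107717201-107718875), 12.6 in *Ezh2* KO, 21.9 in Y726D and 31.1 in R685C ESCs, and a dKO peak was not listed. With 1 library per line, none of these differences was tested, and covered length and −log10 p depend on depth.

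The 2 SUZ12 peaks of dKO ESCs lay near the listing threshold. *Bmp2*, a BMP ligand of early mesoderm and heart, had a peak of −log10 p 108 in WT (chr2:133377928-133380993) and 10.8 in dKO (chr2:133378033-133378821), both starting just downstream of the annotated start site, by 33 and 138 bp. *Bmpr1b*, a type I BMP receptor gene, had 34.8 in WT and 10.4 in dKO, where the peak was 247 bp wide, with no peak in *Ezh2* KO ESCs. Both were absent at a p of at most 1e-20.

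Of the 27 members with H3K27me3 in WT, 18 kept it in *Ezh2* KO ESCs (66.7%), near the 69.7% of all genes marked in WT, and none did in dKO or Y726D ESCs. No other member was marked in *Ezh2* KO (17.3% of all genes were). The 9 members that held it in WT and not in *Ezh2* KO were *Acvr1b*, *Bmp8a*, *Gdf11*, *Id1*, *Id4*, *Lefty1*, *Tgfb2*, *Tgfb3* and *Tgfbr1*. Over the 18 shared promoters the covered length had a median of 2928 bp in *Ezh2* KO and 2933.5 bp in WT, with fewer bases in 9 of 18. The 2 lists differ in strength, with a median best −log10 p of 19.5 at the 27 WT members and 143 at the 18 *Ezh2* KO members. Equal covered length is therefore no measure of an equal amount or spread of H3K27me3. From spike-in normalized signal, the study reports less H3K27me3 and less spreading in *Ezh2* KO. No member had a peak in dKO (0.121% of genes), a list of only 53 peaks, and *Smad4* alone had one in Y726D (1.38% of genes). In R685C ESCs 29 members were marked (28.3% of genes), which included *Gdf3*, *Gdf5* and *Lefty2* and not *Acvr1b*. HA-EZH1 put back into dKO ESCs lay at 18 members (13.2% of genes), 17 of them bound by SUZ12 in WT (59.2% of bound genes). The HA control without tagged EZH1 had a peak at *Gdf15* only (3.61% of genes).

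RNA levels of the members were compared with limma on log2(normalized count + 1). A call needed an adjusted p below 0.1 together with a log2 fold change of 1 or more in either direction. Fold changes on this scale understate the change of low genes. In dKO ESCs 3 of the 35 tested members were called higher (3.63% of all tested genes) and 0 lower (0.389%). These were the receptor *Acvrl1*, the ligand *Bmp8b* and the co-receptor *Tgfbr3*. In Y726D ESCs the same 3 genes and *Bmp4* were called higher, 4 in all (1.66% of all tested genes), and 0 lower (1.06%). Both comparisons use the same WT libraries. In *Ezh2* KO ESCs limma called 0 members higher (0.0937%) and 0 lower (0.31%), with 6 higher and 3 lower at an unadjusted p under 0.05 (4.13% and 4.7% of all genes). edgeR called 0 there as well, and DESeq2 called 1, *Tgfbr3*, lower.

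**Figure D2:**
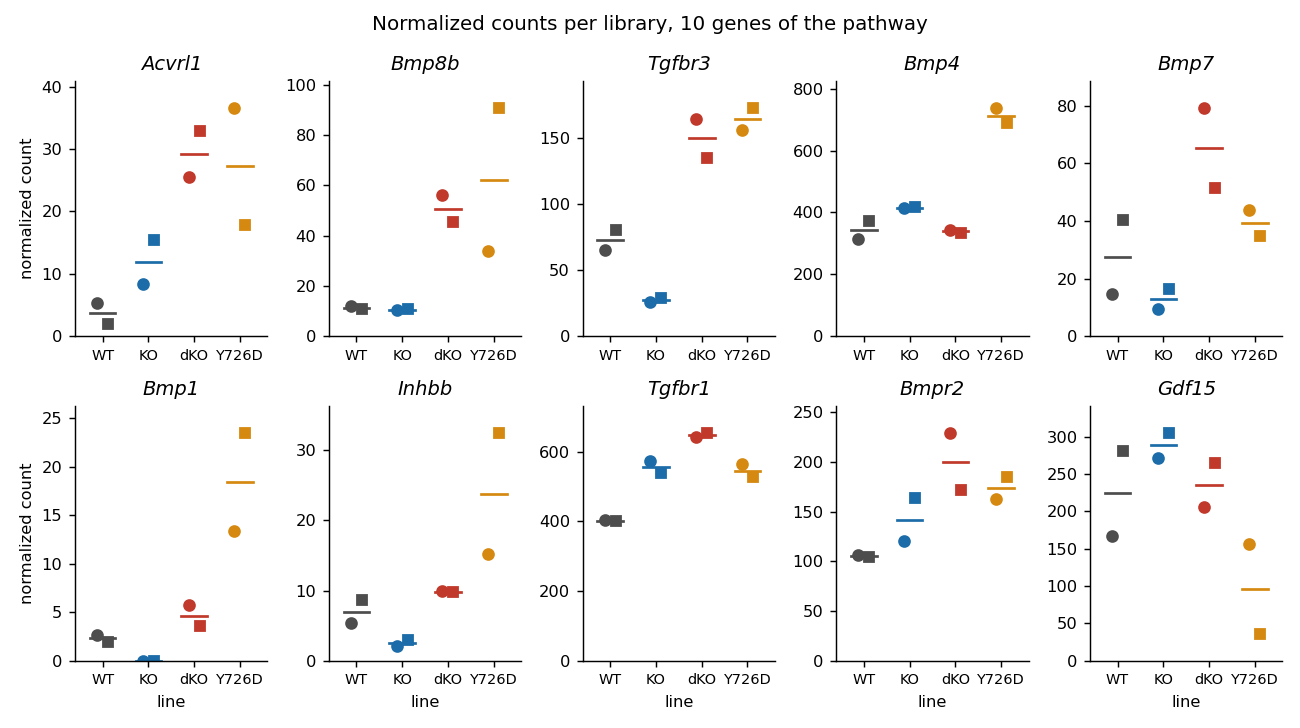
Normalized counts of 10 members in each RNA-seq library by line, on linear axes that start at 0. Circles are replicate 1, squares replicate 2 and lines the mean of both. *Acvrl1*, *Bmp8b* and *Tgfbr3* lie above WT in both dKO and both Y726D libraries, while *Bmp4* does so in Y726D only among these 2 lines.

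Among the BMP ligands, *Bmp4* rose in Y726D ESCs. Its normalized counts were 313 and 373 in WT, 413 and 417 in *Ezh2* KO, 343 and 334 in dKO and 736 and 688 in Y726D ESCs. Both Y726D libraries lay above all others. The log2 fold change against WT was 1.06 (SE 0.15, adjusted p = 0.0161), and against dKO it was 1.07 (SE 0.15, adjusted p = 0.0163). *Bmp4* (chr14:47003195-47010344, minus strand) encodes the ligand that sustains *Id* expression in ESCs. Its promoter held H3K27ac in all 4 mutant lines, and those peaks covered 1384 bp in *Ezh2* KO, 261 in dKO, 5495 in Y726D and 6016 in R685C. Without WT replicate 1 the fold change was 0.93, under the size needed for a call, and without dKO replicate 1 or 2 the adjusted p against dKO was 0.163 and 0.252. With only the 4 libraries compared, the adjusted p against WT was 0.134.

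*Bmp8b*, a BMP ligand of germ cells and brown fat (chr4:122782408-122809342, plus strand), rose in dKO and Y726D ESCs. It was at 12 and 10.6 in WT, 10.5 and 10.6 in *Ezh2* KO, 56.1 and 45.3 in dKO and 33.9 and 90.6 in Y726D ESCs. The last 4 libraries lay apart from the first 4. The log2 fold change was 2.07 in dKO (SE 0.50, adjusted p = 0.0682), 2.20 in Y726D (SE 0.50, adjusted p = 0.0695) and 2.15 between dKO and *Ezh2* KO (SE 0.50, adjusted p = 0.0662). The promoter printed above held SUZ12 and H3K27me3 in WT and no H3K27ac in any of the 4 lists. The call depends on single libraries. In dKO the adjusted p was 0.124 and 0.119 without WT replicate 1 or 2, 0.103 without either *Ezh2* KO library, and 0.376 and 0.336 without dKO replicate 1 or 2. In Y726D it was 0.136 and 0.148 without WT replicate 1 or 2, 0.121 and 0.118 without *Ezh2* KO replicate 1 or 2, 0.145 and 0.143 without dKO replicate 1 or 2 and 0.282 without Y726D replicate 2. Between dKO and *Ezh2* KO it was 0.277 and 0.209 without *Ezh2* KO replicate 1 or 2, and 0.452 and 0.375 without dKO replicate 1 or 2. Without a filter on low values the dKO and Y726D adjusted p were 0.102 and 0.117. Quantile normalization gave 0.166 in dKO, 0.109 in Y726D and 0.256 between dKO and *Ezh2* KO, and only the 4 libraries compared gave 0.252 in Y726D. *Bmp8b* and *Bmp8a* share 210 words of 50 bases (7.30% and 8.74% of each), and *Bmp8b* overlaps *Oxct2b* and *Ppie* in an unstranded count, so its reads are not certain.

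*Bmp8a*, the neighbouring paralog, was at 61.4 and 50.1 in WT and at 47.8 and 38.2 in dKO, lower in both libraries, with no call. In Y726D ESCs it was at 68.7 and 144. *Bmp7*, a ligand of kidney and eye development (chr2:172693513-172765822, minus strand), was at 14.7 and 40.4 in WT, 9.41 and 16.4 in *Ezh2* KO, 79.1 and 51.5 in dKO and 43.7 and 34.7 in Y726D ESCs. It was called higher in dKO than in *Ezh2* KO ESCs (log2 fold change 2.27, SE 0.53, adjusted p = 0.0698) but not than in WT (1.35, SE 0.53, adjusted p = 0.219), whose libraries differed 2.64-fold. Without *Ezh2* KO replicate 1 or 2 the adjusted p against *Ezh2* KO was 0.384 and 0.143, and without dKO replicate 1 or 2 it was 0.482 and 0.319. Quantile normalization gave 0.191. A replicate block also ended the *Bmp7* call, at an adjusted p just outside the threshold. The *Bmp7* promoter held SUZ12 in every line but dKO, and H3K27ac only in Y726D among the 4 lists.

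*Bmp1* encodes a protease that matures procollagen and frees BMPs from their antagonist chordin. It had 2 and 2 reads in WT, 0 and 0 in *Ezh2* KO, 7 and 4 in dKO and 15 and 21 in Y726D ESCs. From reads summed per line, the exact 95% interval of the ratio of *Ezh2* KO to WT was 0 to 1.36, which includes no difference, and that of dKO to *Ezh2* KO began at 2.13 (counting error only). The ratio of Y726D to WT was 7.99 (2.86 to 30.9), and limma gave 2.52 (SE 0.66, adjusted p = 0.105), which is no call. With a pseudocount of 5 (adjusted p = 0.0611) or no filter on low values (0.0934) limma called it higher there. Between dKO and *Ezh2* KO limma called it with no filter (0.0729), only the 4 libraries compared (0.0791) or upper-quartile rescaling (0.0876), but not in the main fit.

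No gene of the Nodal branch was called. *Nodal*, the ligand of the primitive streak and left-right axis, was at 834 and 945 in WT, 975 and 958 in *Ezh2* KO, 755 and 876 in dKO and 917 and 765 in Y726D ESCs. *Gdf3* was at 1157 and 1085 in WT and 860 and 867 in dKO, lower in both dKO libraries, with a log2 fold change of −0.38 (SE 0.12, adjusted p = 0.130). *Lefty1* ranged from 654 to 891 in WT and from 1001 to 1016 in dKO (0.40, SE 0.32, adjusted p = 0.530), and its Y726D libraries were apart at 851 and 380. *Lefty2* was at 1035 and 1547 in WT, 1787 and 2098 in *Ezh2* KO, 1824 and 1965 in dKO and 1828 and 1250 in Y726D ESCs. The fitted change of *Lefty2* was 0.61 in *Ezh2* KO (SE 0.22, adjusted p = 0.433) and 0.58 in dKO (SE 0.22, adjusted p = 0.204). The Lefty paralogs share 281 words of 50 bases, 17.9% of *Lefty1* and 11.6% of *Lefty2*. Without Y726D replicate 1, *Lefty1* was called lower in Y726D than in WT (−1.002, adjusted p = 0.0464). *Gdf15*, a stress-induced distant member, was at 167 and 281 in WT and at 156 and 35.8 in Y726D ESCs, and its fold change of −1.52 (SE 0.55, adjusted p = 0.242) became −2.56 without Y726D replicate 1.

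*Inhbb*, the beta B subunit of activins and inhibins, was at 5.34 and 8.67 in WT, 2.09 and 2.90 in *Ezh2* KO, 9.89 and 9.77 in dKO and 15.2 and 32.4 in Y726D ESCs. The *Ezh2* KO libraries were the lowest and the Y726D ones the highest, without overlap, and no contrast was called (Y726D against WT 1.57, SE 0.58, adjusted p = 0.253). Its promoter, printed above, had 4077 bp under SUZ12 peaks in WT with a best −log10 p of 117, compared with 39.8 in *Ezh2* KO and 13.6 in Y726D. *Tgfb2* was at 17.3 and 50.1 in WT and at 74.2 and 73.7 in dKO (1.29, SE 0.59, adjusted p = 0.276).

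Of the receptors, *Acvrl1* and *Tgfbr3* rose. *Acvrl1* (chr15:100958953-100975767, plus strand) encodes ALK1, a type I receptor best known from endothelial cells. Its normalized counts were 5.34 and 1.93 in WT, 8.36 and 15.5 in *Ezh2* KO, 25.6 and 32.9 in dKO and 36.6 and 17.9 in Y726D ESCs, from 2 to 41 reads per library. Every mutant library was above both WT libraries, and dKO and Y726D were above *Ezh2* KO. The log2 fold change was 2.80 in dKO (SE 0.60, adjusted p = 0.0473), 2.63 in Y726D (SE 0.60, adjusted p = 0.0700) and 1.53 in *Ezh2* KO (SE 0.60, adjusted p = 0.482). The promoter held H3K27me3 in WT and *Ezh2* KO with no SUZ12 peak in those lines, and H3K27ac in Y726D only. In dKO the adjusted p was 0.106 without WT replicate 2, and 0.270 and 0.343 without dKO replicate 1 or 2. In Y726D the adjusted p was 0.176 without WT replicate 2, 0.107 and 0.111 without *Ezh2* KO replicate 1 or 2, 0.145 and 0.144 without dKO replicate 1 or 2 and 0.175 without Y726D replicate 1. Quantile normalization ended the *Acvrl1* call in dKO (adjusted p = 0.104). The Y726D call was also lost with no filter on low values (0.117), with a replicate block (0.102) and with only the 4 libraries compared (0.261).

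*Tgfbr3* encodes betaglycan, a co-receptor that presents TGF-beta2 and binds inhibins (chr5:107535589-107718648, minus strand). It was at 65.4 and 79.9 in WT, 26.1 and 29.0 in *Ezh2* KO, 164 and 135 in dKO and 156 and 172 in Y726D ESCs. The *Ezh2* KO libraries were below WT and the other mutants above it, with no overlap. The log2 fold change was 1.03 in dKO (SE 0.27, adjusted p = 0.0816) and 1.17 in Y726D (SE 0.27, adjusted p = 0.0689). In *Ezh2* KO it was −1.36 (SE 0.27, adjusted p = 0.108), just outside the threshold, and DESeq2 gave −1.40 (adjusted p = 0.0419). Between dKO and *Ezh2* KO it was 2.39 (SE 0.27, adjusted p = 0.00347), the only member contrast called under all 17 alternatives. Against WT the dKO adjusted p was 0.193 without WT replicate 1, 0.106 without either *Ezh2* KO library, and 0.479 and 0.35 without dKO replicate 1 or 2. The Y726D adjusted p was 0.176 without WT replicate 1, 0.105 and 0.106 without *Ezh2* KO replicate 1 or 2, 0.153 and 0.151 without dKO replicate 1 or 2, and 0.106 and 0.226 without Y726D replicate 1 or 2. The dKO call of *Tgfbr3* against WT was also lost with a pseudocount of 5 (log2 fold change 0.993), with quantile normalization (adjusted p = 0.132) and with a replicate block (0.106), and the Y726D call with only the 4 libraries compared (0.237). In Y726D ESCs an H3K27ac peak lay over the 5′ start of the gene (−log10 p 25.3). The dKO peak (chr5:107557971-107558224, −log10 p 11.3) lay 3718 bp from an internal start site, away from the SUZ12-bound start, and *Ezh2* KO and R685C had none.

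*Tgfbr1*, the type I TGF-beta receptor ALK5, was at 403 and 401 in WT, 574 and 538 in *Ezh2* KO, 642 and 654 in dKO and 563 and 528 in Y726D ESCs. All 6 mutant libraries lay above WT, and the dKO change of 0.69 (SE 0.13, adjusted p = 0.0358) passed the test but not the fold. The same held for *Bmpr2*, the type II BMP receptor, with 107 and 104 in WT, 229 and 171 in dKO and a change of 0.91 (SE 0.24, adjusted p = 0.0937). *Bmpr1a*, the main type I BMP receptor of ESCs, was at 289 and 247 in WT and 408 and 359 in dKO (0.51, SE 0.16, adjusted p = 0.138). *Acvr2b*, a type II activin and Nodal receptor, was at 90.7 and 114 in WT and 138 and 155 in dKO (0.53, SE 0.24, adjusted p = 0.276). For *Bmpr1b*, the dKO libraries were at 35.4 and 4.44, 6.70-fold apart, a gap that 0.101% of all genes reached. Of the other receptor genes, *Acvr1*, *Acvr1b*, *Acvr2a* and *Tgfbr2* were not called in any comparison. *Acvr1b*, a type I receptor of activin and Nodal, was at 132 and 304 in WT, 2.29-fold apart, and at 396 and 431 in *Ezh2* KO ESCs. Without WT replicate 2 it was called higher in *Ezh2* KO (1.64, adjusted p = 0.0406), in dKO (1.14, adjusted p = 0.0740) and in Y726D (1.28, adjusted p = 0.0670).

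The *Id* genes, the classical immediate targets of BMP signalling, differed widely within WT. For *Id1*, *Id2* and *Id3* the 2 WT libraries were farther apart than the means of any 2 lines. *Id1* was at 316 and 51.0 in WT, 42.9 and 103 in *Ezh2* KO, 135 and 156 in dKO and 140 and 190 in Y726D ESCs. *Id2* was at 296 and 34.7, 61.7 and 61.0, 277 and 200, and 82.9 and 175 in the same order. *Id3* was at 791 and 233, 187 and 294, 496 and 411, and 259 and 695. WT replicate 1 thus exceeded replicate 2 by 6.10-fold for *Id1*, 8.33-fold for *Id2* and 3.38-fold for *Id3*, gaps reached by 1.2%, 0.606% and 3.99% of all genes. *Smad6*, which BMP also induces, showed the same gap, 20.01 against 3.85 (4.33-fold, 2.34% of genes). *Id4* was at 10.7 and 15.4 in WT, 22.0 and 27.1 in *Ezh2* KO, 33.0 and 9.77 in dKO and 22.3 and 7.83 in Y726D ESCs. No *Id* gene was called in any comparison, and their log2 fold changes against WT had standard errors of 0.71 for *Id1*, 0.79 for *Id2*, 0.56 for *Id3* and 0.67 for *Id4*. Without WT replicate 1, *Id2* was called higher in dKO (2.73, adjusted p = 0.0272), and without WT replicate 2 it was called lower in *Ezh2* KO (−2.25, adjusted p = 0.0718). Between dKO and *Ezh2* KO, where both dKO libraries lay above both *Ezh2* KO libraries, the *Id2* change was 1.92 (SE 0.79, adjusted p = 0.320). It was called there without WT replicate 1 (adjusted p = 0.0328), without WT replicate 2 (0.0272) and with only the 4 libraries compared (0.00110), a fit that also called *Id1* higher (1.118, adjusted p = 0.0826).

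**Figure D3:**
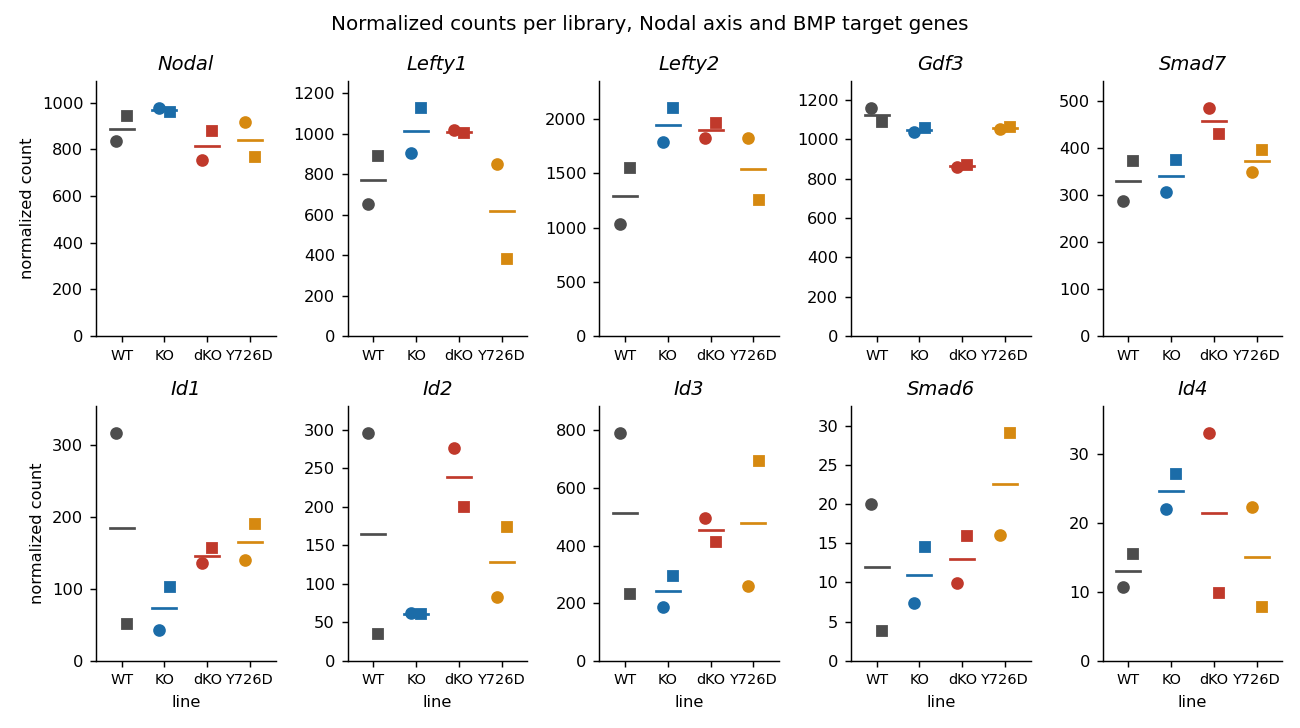
Normalized counts of the Nodal branch, the inhibitory SMADs and the *Id* genes in each RNA-seq library by line, on linear axes that start at 0. Circles are replicate 1, squares replicate 2 and lines the mean. The WT points of *Id1*, *Id2*, *Id3* and *Smad6* lie far apart, with replicate 1 the higher, and the points of *Nodal* lie close together in every line.

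No SMAD gene was called. This held for *Smad1*, *Smad2*, *Smad3*, *Smad5* and *Smad9*, for *Smad4* and for the inhibitory *Smad6* and *Smad7* in all 5 comparisons. *Smad2*, which carries the Nodal and activin signal, stayed between 437 and 552 in all 8 libraries. *Smad1*, which carries the BMP signal, was at 60.0 and 62.6 in WT, 73.4 and 67.5 in dKO and 39.2 and 25.7 in Y726D ESCs, where it was the lowest in both libraries (−0.93, SE 0.32, adjusted p = 0.216). Without Y726D replicate 1, *Smad1* was called lower in Y726D than in dKO (−1.42, adjusted p = 0.0882). *Smad9* was at 9.34 and 9.63 in WT and at 3.14 and 1.94 in *Ezh2* KO (−1.59, SE 0.58, adjusted p = 0.443), below both libraries of every other line. *Smad7* was at 287 and 373 in WT and 484 and 429 in dKO (0.48, SE 0.19, adjusted p = 0.220). *Smad6* in Y726D was at 16.0 and 29.1 (1.17, SE 0.74, adjusted p = 0.545), inside the WT range for replicate 1.

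Another 10 members were too low to be tested and had 0 to 13 reads per library. *Bmp6* had 1 and 1 reads in WT, 0 and 1 in *Ezh2* KO, 13 and 5 in dKO and 5 and 3 in Y726D ESCs. Its ratio of dKO to WT was 6.88 (exact 95% interval 1.65 to 61.1) and of dKO to *Ezh2* KO 15.3 (2.42 to 638), for counting error only. *Bmp2* had 3 and 0 reads in WT, 1 and 0 in *Ezh2* KO, 4 and 8 in dKO and 6 and 10 in Y726D ESCs. The ratio of Y726D to WT was 4.73 (1.35 to 25.3) and of dKO to WT 3.06 (0.825 to 16.9), so the dKO line, which kept SUZ12 there, had more reads in both libraries at an interval that includes no difference. *Tgfb1* had 0 and 4 reads in WT, 10 and 3 in dKO and 6 and 7 in Y726D ESCs, with ratios of 2.48 (0.767 to 10.5) and 2.88 (0.891 to 12.1). *Bmp3*, *Bmp15*, *Gdf5*, *Gdf9*, *Gdf10*, *Gdf11* and *Tgfb3* had at most 10 reads in any library.

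Over the 35 tested members the median log2 fold change was 0.11 in *Ezh2* KO, 0.47 in dKO and 0.29 in Y726D ESCs, with 21, 30 and 28 members above 0, while all tested genes had medians of −0.01, 0.01 and −0.01. Between dKO and *Ezh2* KO the member median was 0.32, and between Y726D and dKO it was −0.10 (all genes −0.01 and −0.02). Quantile normalization lowered the dKO median to 0.21. In dKO, 18 of the 35 had both libraries above both WT libraries (28% of all genes) and 3 below (24.5%). In Y726D these counts were 13 (19%) and 4 (18.1%), and in *Ezh2* KO 12 (18%) and 9 (17.6%). Between dKO and *Ezh2* KO, 3 members were called higher (3.52%), *Tgfbr3*, *Bmp8b* and *Bmp7*, and 0 lower (0.0577%). At an unadjusted p under 0.05 there were 9 higher (10.6%) and 1 lower, *Gdf3* (2.8%), and 19 and 6 members did not overlap (26.6% and 26.9%). Between Y726D and dKO, *Bmp4* was called higher (0.187%) and 0 were lower (1.49%), with 4 higher (4.55%) and 4 lower (8.55%) at an unadjusted p under 0.05, and 7 above and 12 below without overlap (22.1% and 25.2%). Beside the counts of 0 lower against WT, an unadjusted p under 0.05 gave 9 higher (12%) and 1 lower (6.62%) in dKO and 8 higher (7.47%) and 2 lower (6.81%) in Y726D, and edgeR and DESeq2 called 0 members lower in these 4 comparisons other than *Ezh2* KO against WT.

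**Figure D4:**
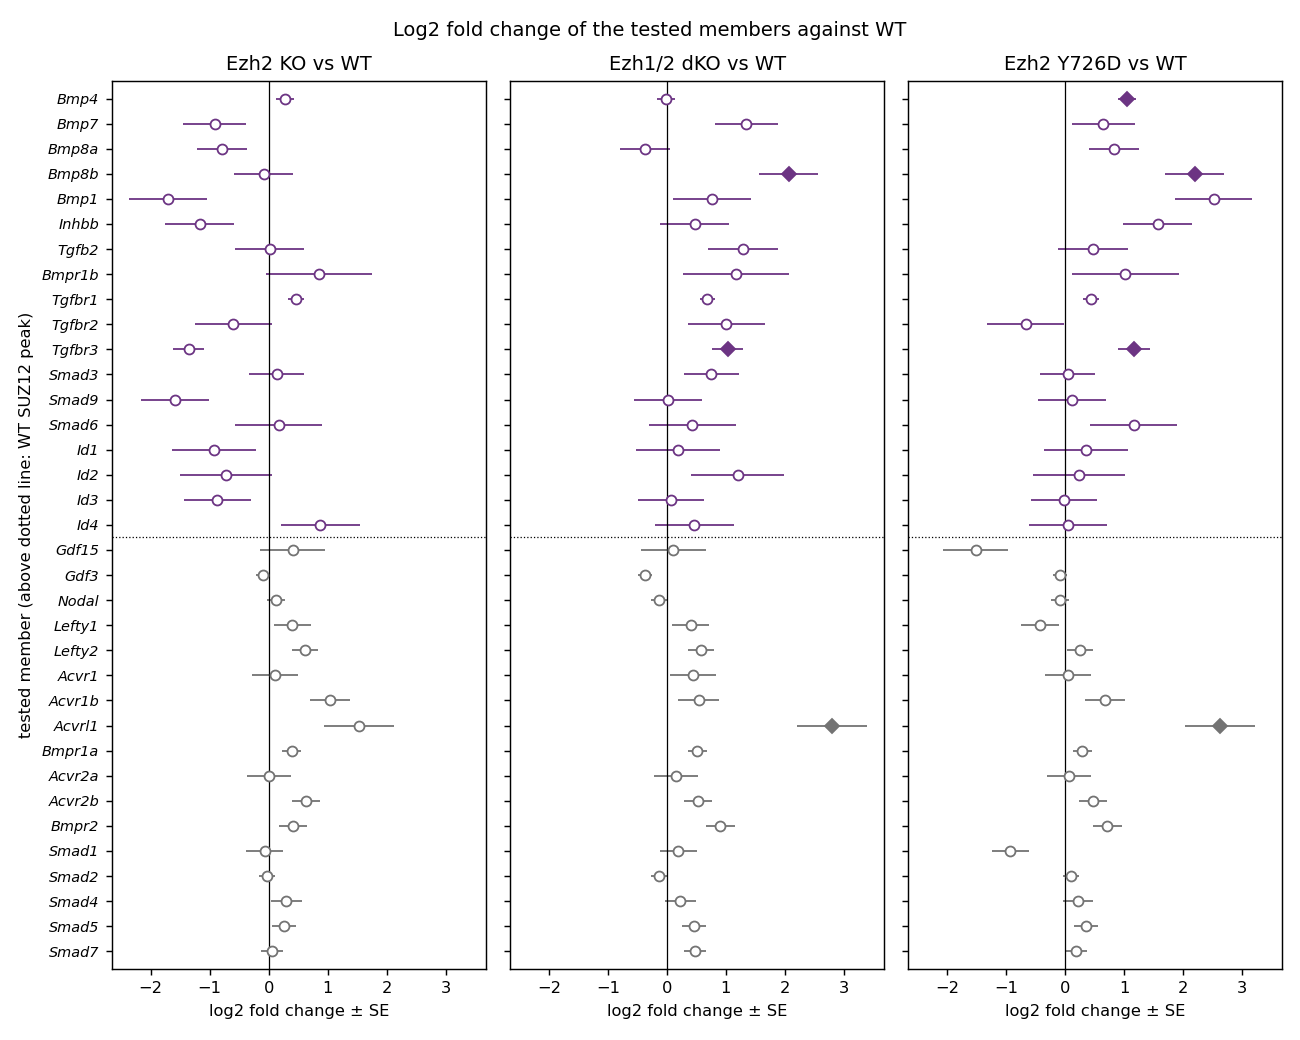
Log2 fold change against WT with its standard error (x axis) for the 35 tested members (rows) in *Ezh2* KO, dKO and Y726D ESCs (panels). Members with a WT SUZ12 peak are purple and stand above the dotted line, and filled diamonds mark calls. The median of the 18 bound members is −0.66, 0.72 and 0.56 in the 3 panels, and that of the other 17 is 0.30, 0.45 and 0.18.

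Split by SUZ12 in WT, the bound members had lower values in *Ezh2* KO and higher values in the other mutants. The 18 tested bound members had a median of −0.66 in *Ezh2* KO (−0.59 with the 0 reads of *Bmp1* set to a floor of 3 over the line), 0.72 in dKO and 0.56 in Y726D ESCs. All 1867 tested bound genes of the table had −0.10, 0.74 and 0.45. The 17 tested members without a peak had 0.30, 0.45 and 0.18, compared with 0.00, −0.04 and −0.04 over 11039 genes. Between dKO and *Ezh2* KO the bound members had a median of 1.196, which that floor left as it was, and all bound genes had 0.85. In dKO 16 of the 18 lay above 0, and 2 were called (12.6% of all bound genes called higher). In Y726D 16 lay above 0 and 3 were called (6.96% of bound genes). The dKO value of the bound members was thus near that of bound genes in general. Leaving out 1 library at a time moved the *Ezh2* KO median of the bound members between −0.88 and 0.0025, the latter without WT replicate 1, so its size rests on that library.

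H3K27ac peaks were listed at more members in Y726D than in the other 3 mutants, a difference that 1 library per line does not allow to test. Of all 45 members, 35 had an H3K27ac peak in Y726D (60.3% of all genes), 18 in *Ezh2* KO (48.8%), 18 in dKO (37.1%) and 21 in R685C (58.9%). Of the 24 members bound by SUZ12 in WT, 17 had an H3K27ac peak in Y726D (70.8%, 95% CI 50.8 to 85.1, 49.7% of all bound genes). In *Ezh2* KO there were 4 (18% of bound genes), in dKO 8 (21.7%) and in R685C 6 (25.1%). The Y726D list is not the longest, with 40829 peaks against 41185 in R685C, 25483 in *Ezh2* KO and 17618 in dKO. When each list was reduced to its best 17618 peaks, a setting chosen after seeing the data, the bound members with a peak were 14 in Y726D, 3 in *Ezh2* KO, 8 in dKO and 4 in R685C (27.9%, 13.2%, 21.7% and 12.4% of bound genes). At a p of at most 1e-20 they were 6, 1, 0 and 4 in the same order (19.7%, 6.18%, 4.45% and 11.9% of bound genes). The Y726D share of the 24 members was then 25%, nearer to that of bound genes. H3K27ac in WT was not analysed here, so a gain over WT cannot be stated.

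**Figure D5:**
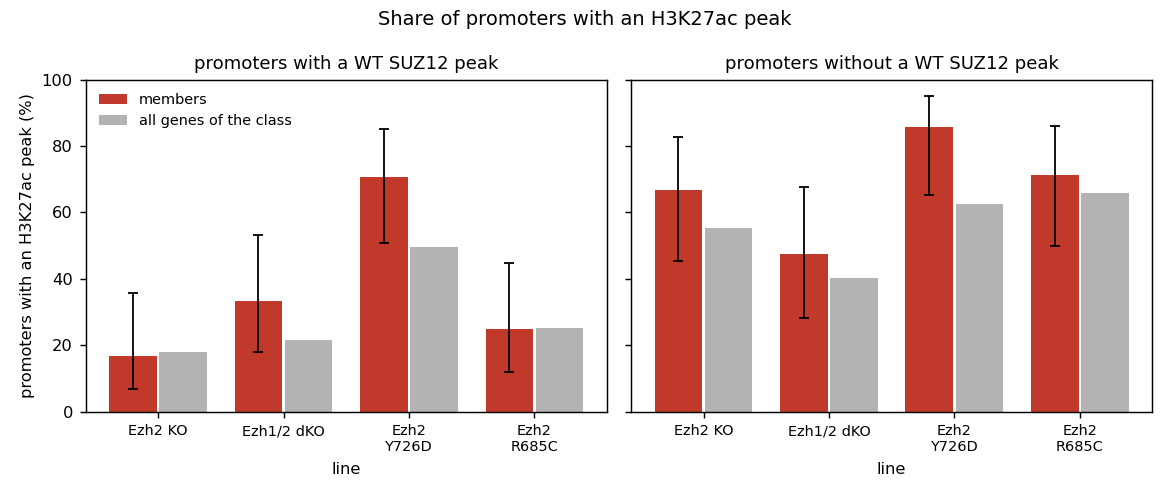
Share of promoters with an H3K27ac peak (y axis, percent) in the 4 mutant lines, for members (with their Wilson 95% interval) and for all genes. Genes are split by whether a WT SUZ12 peak lay at any of their start sites (left) or at none (right). The H3K27ac peak also counted at any start site, so it need not lie where SUZ12 lay. Among bound promoters the member bar stands at 70.8% in Y726D and at or below 33.3% in the other lines.

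The bound members with H3K27ac only in Y726D were 8 (20.2% of bound genes), *Bmp2*, *Bmp6*, *Bmp7*, *Id1*, *Id4*, *Inhbb*, *Tgfb1* and *Tgfbr1*. Their best −log10 p was 13.6 to 23.1 with a median of 18.5. Of these, *Tgfbr1* was well expressed in every line, and *Bmp2*, *Bmp6* and *Tgfb1* were below the RNA filter. *Bmp4*, *Bmp8a* and *Smad3* had H3K27ac in all 4 lines (12.2%). *Bmp1*, *Bmp3*, *Bmp8b*, *Gdf10*, *Gdf11* and *Smad9* had it in none (47.2%). Peaks in Y726D and not in R685C were found at 12 bound members (27%), and the reverse at 1, *Id2* (2.36%). Peaks in dKO and not in *Ezh2* KO were found at 5 (8.44%), *Id3*, *Smad6*, *Tgfb2*, *Tgfbr2* and *Tgfbr3*, and the reverse at 1, *Bmpr1b* (4.69%). With the most 5′ start site only, the counts were 6 in dKO, without *Smad3* and *Tgfbr3*, and 3 in *Ezh2* KO, without *Bmpr1b*. Among the 21 members without SUZ12 in WT, 10 had H3K27ac in all 4 lines (37.3% of such genes), the Nodal branch (*Nodal*, *Gdf3*, *Lefty1* and *Lefty2*) with *Acvr2b*, *Bmpr1a*, *Bmpr2*, *Gdf9*, *Gdf15* and *Smad7*. Another 4 of them, *Acvr1*, *Acvrl1*, *Gdf5* and *Smad5*, had it in Y726D only (4.40% of such genes).

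Other pathway genes were taken from a list of 65 antagonists, co-receptors, further ligands, intracellular regulators and targets. Of the 44 that could be tested, limma called 1 higher and 0 lower in dKO (3.63% and 0.389% of all tested genes). In Y726D it called 1 higher and 2 lower (1.66% and 1.06%), and in *Ezh2* KO 0 (0.0937% and 0.31%). edgeR gave the same counts. At an unadjusted p under 0.05 limma had 5 higher and 2 lower in dKO (12% and 6.62% of all genes). These counts were 4 and 3 in Y726D (7.47% and 6.81%) and 2 and 2 in *Ezh2* KO (4.13% and 4.7%). *Hey1*, a transcriptional repressor induced by BMP9 and Notch, was at 6.67 and 11.6 in WT, 35.4 and 40.0 in dKO and 39.2 and 45.9 in Y726D ESCs. It rose by 1.98 in dKO (adjusted p = 0.0653) and by 2.15 in Y726D (adjusted p = 0.0625) on the log2 scale. *Inhbe*, another inhibin beta subunit, was at 113 and 202 in WT, 141 and 204 in *Ezh2* KO, 76.7 and 93.2 in dKO and 9.81 and 2.24 in Y726D ESCs, and its fold change in Y726D was −4.69 (SE 0.54, adjusted p = 0.00829). *Ppm1a*, a phosphatase that acts on SMADs, was at 406 and 246 in WT and at 118 and 98.4 in Y726D ESCs (−1.54, adjusted p = 0.0324). It lies on chromosome 12, where the median log2 fold change in Y726D over 430 genes was −0.30, so a shift of the chromosome moves with this value and its part was not tested. *Id2* and *Tgfb3* also lie on chromosome 12. Chromosome 4, which holds *Bmp8a*, *Bmp8b*, *Id3* and *Tgfbr1*, had the next lowest autosomal median in Y726D, −0.105 over 823 genes. The 4 tested genes of chromosome Y had a median of −8.24. The part of these shifts in the member values was not tested.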

How the data were processed

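RNA-seq of 8 libraries and ChIP-seq peak lists of 5 lines were used. The authors aligned RNA-seq reads with TopHat, counted them without strand by HTSeq-count on RefSeq mm9 genes and divided them by DESeq2 size factors. The deposited normalized counts are thus a signal per gene and library, and 100% of the values gave whole reads. For ChIP-seq the authors aligned reads with Bowtie to mm9, kept unique alignments without duplicates and used MACS2 to call peaks. Each deposited list holds the −log10 p of each peak against its own background, and the HA lists hold positions only. The Drosophila spike-in does not enter the lists. The authors' own comparison columns (log2 fold changes and p-values) and the broad ATAC-seq, H3K27me1 and H3K27me2 lists were not used.

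Members were fitted with limma 3.58.1 (R 4.3.3) within all 13872 genes with a mean of at least 5, in all 8 libraries with a trend and Benjamini-Hochberg adjustment. edgeR 4.0.16 and DESeq2 1.42.0 on the recovered reads were alternatives, beside other filters, scalings, pseudocounts, peak thresholds and windows and leaving out each library. Counting ratios have exact 95% intervals. Peaks were matched to GENCODE start sites of mm9 with Python 3.11.15, pandas 2.3.3, numpy 2.4.6 and scipy 1.17.1, and figures were drawn with matplotlib 3.10.9. Of 18055 genes, 1485 were not matched to the annotation. The calculations were tested on simulated data.

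The members and lists were chosen with earlier results of these data known. Genes were named when called, when among the 3 largest changes against WT without overlap of libraries, when SUZ12 stayed in dKO, or from a list kept whatever its values (*Bmp4*, *Nodal*, *Lefty1*, *Lefty2*, *Gdf3*, *Tgfb1*, *Inhbb*, *Acvr2b*, *Bmpr1a*, *Smad1*, *Smad6*, *Smad7* and the *Id* genes). Other members were described by role after their values were seen. Neuroectoderm and fibroblast markers were also summed. Of their 4 and 2 tested genes, 0 and 1 were called higher in dKO and in Y726D (3.63% and 1.66% of all tested genes). Some results were withheld and are not reported here.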

Additional observations from a re-analysis of the deposited data

Results flagged for a closer look

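Differences from WT were not alike in all mutant lines for 4 member contrasts, tested directly with limma as a contrast of the 2 lines. Between *Ezh1/2* dKO and *Ezh2* KO ESCs the log2 fold change was 2.39 for *Tgfbr3* (adjusted p = 0.00347), 2.27 for *Bmp7* (adjusted p = 0.0698) and 2.15 for *Bmp8b* (adjusted p = 0.0662). *Tgfbr3* was below WT in both *Ezh2* KO libraries and above it in both dKO libraries. *Bmp7* and *Bmp8b* were higher in both dKO libraries than in both *Ezh2* KO libraries. Between *Ezh2* Y726D and *Ezh1/2* dKO ESCs the log2 fold change of *Bmp4* was 1.07 (adjusted p = 0.0163), with both Y726D libraries above both dKO libraries.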

How the results depend on the processing

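No called gene changed direction under any alternative. The member median between Y726D and dKO, which is not a tested value, changed sign under quantile normalization (from −0.10 to 0.035). Other medians that changed sign moved by less than their spread between replicates or did so when 1 library was left out. *Tgfbr3* was called lower in *Ezh2* KO by DESeq2 (1 member called lower). Quantile normalization left 0 members called higher in dKO and 1 between dKO and *Ezh2* KO, with member medians of 0.21, 0.17 and 0.035 in dKO, between dKO and *Ezh2* KO and between Y726D and dKO, and bound-member medians of 0.18, 0.59 and 0.23. Over all genes it changed the split of calls from 503 higher and 54 lower to 290 and 129 in dKO. Fitting only the 4 libraries compared gave 0 calls higher in Y726D and 7 between dKO and *Ezh2* KO, where no filter gave 5. The member median there was 0.43 without a filter and 0.22 at a mean of at least 20. For these alternative fits, calls over all genes are given here only for quantile normalization in dKO. The member counts of the other fits are therefore not read as results about the members. This also holds for the counts below with 1 library left out or with a replicate block. A pseudocount of 5 gave bound-member medians of −0.44 in *Ezh2* KO, 0.54 in dKO and 0.96 between them. With SUZ12 peaks at a p of at most 1e-20 those medians were 1.01 in dKO, 0.83 in Y726D and 1.61 between dKO and *Ezh2* KO, and with lists of equal length, chosen after seeing the data, 0.74 in Y726D and 1.61. At 1e-20 the members with a peak were 0 (SUZ12 dKO), 4 (SUZ12 Y726D), 7 (SUZ12 R685C), 13 (H3K27me3 WT), 0 (H3K27me3 Y726D), 9, 6 and 16 (H3K27ac *Ezh2* KO, dKO and Y726D). H3K27ac in Y726D gave 28 with lists of equal length. H3K27me3 in Y726D gave 0 with a window of 1 kb or the most 5′ start only, and the HA control gave 0 at 1 kb. The cause of these changes was not tested, except that stricter thresholds leave fewer peaks.

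Leaving out 1 library at a time, where a lone library is assumed to vary like the others, gave 0 to 1 members higher and 0 to 1 lower in *Ezh2* KO, 0 to 3 and 0 in dKO, 1 to 3 and 0 to 2 in Y726D, 1 to 5 and 0 between dKO and *Ezh2* KO, and 0 to 2 and 0 to 3 between Y726D and dKO. Signs changed for the *Ezh2* KO median of members without *Ezh2* KO replicate 2, and without WT replicate 1 for the *Ezh2* KO median of bound members and the Y726D median of the others. The median of the other members between dKO and *Ezh2* KO also changed sign. So did that of bound members between Y726D and dKO. Member medians ran from −0.039 to 0.17, 0.39 to 0.53, 0.29 to 0.39, 0.23 to 0.45 and −0.21 to −0.065 in that order. Bound-member medians ran from −0.88 to 0.0025, 0.59 to 0.79, 0.56 to 0.90, 0.88 to 1.44 and −0.087 to 0.30, and those of the other members from 0.18 to 0.31, 0.18 to 0.48, −0.0061 to 0.30, −0.03 to 0.08 and −0.23 to −0.05. Correlations of −0.41 to 0.29 between lines describe how far libraries of equal replicate number departed together. Whether such libraries had a batch in common was not tested. With a replicate block 0 members were called in *Ezh2* KO, 2 in dKO, 3 in Y726D, 2 between dKO and *Ezh2* KO and 1 between Y726D and dKO. The block ended the calls of *Tgfbr3* in dKO, *Acvrl1* in Y726D and *Bmp7* between dKO and *Ezh2* KO.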
